A study of Arabidopsis thaliana with 12 samples.

Results

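Described here are 4 Arabidopsis genes that are known to respond to low oxygen, followed through a chemical block of the mitochondrial ATP synthase: the lactate dehydrogenase gene AT4G17260 and the hypoxia-responsive genes AT5G66985, AT3G27220 and AT4G33560. They were picked by name with their measured changes under oligomycin known, and each was read by the probe set that names it alone, 4 genes of 13355 with such a probe set. The changes of these 4 genes under oligomycin are therefore given as descriptions without a test. Whether another gene rose or fell was judged by limma with an adjusted p under 0.05.

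Col-0 seedlings had grown for 9 days in shaken liquid medium with 1% sucrose under long days, had then stood in the dark for 24 h and stayed dark to the harvest. They received oligomycin (labelled oligo) at 10 µM from a stock, or an equal volume of ethanol (labelled EtOH), for 1 h or 4 h, which gave 4 groups of 3 biological replicates and 12 arrays. Cultures of all groups thus shared the wild type, the sucrose, the dark and the culture in flasks, and no untreated or low-oxygen group was analysed here, so that what hypoxia does to a gene is background here and not a measurement. RNA came from whole seedlings, in which fewer cells of a type and less RNA per cell cannot be told apart. Of the tissue markers listed, only one on each side had a probe set naming it alone: RCA, the activase of Rubisco in green tissue, had an intensity of 1072 ± 109 at 4 h in ethanol against 897 ± 35.8 with oligomycin, and the root hair expansin EXPA7 at 20.7 ± 13.5 and 8.03 ± 5.05 (SD, n = 3). Neither was called at 4 h (limma adjusted p = 0.0917 and 0.173) or at 1 h. The EXPA7 means lay below the lowest array median of 36.2, so its result says little about root tissue. A single marker on each side cannot show that the tissue make-up was unchanged.

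When oxygen runs out, the respiratory chain cannot pass electrons on, ATP is then made by glycolysis alone, and fermentation has to return NADH to NAD+. Lactate dehydrogenase does this by reducing pyruvate to lactate, while pyruvate decarboxylase and alcohol dehydrogenase do it by making ethanol. In plants the response of genes to hypoxia runs mainly through transcription factors of the ERF group VII, which oxygen itself marks for breakdown, and a conserved set of genes, many of unknown function, is induced in this way in root and shoot. Oligomycin blocks the mitochondrial ATP synthase, so it cuts the supply of ATP from respiration in another way than a withdrawal of oxygen. The comparison of interest is how genes of the hypoxia set stand under this block. The oxygen level in the cultures is not known here.

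Lactate dehydrogenase went one way and the other 3 genes the other way. After 4 h of oligomycin the intensity of AT4G17260 was 7.97 times that in ethanol, whereas AT5G66985, AT3G27220 and AT4G33560 were 3.01, 2.86 and 2.60 times as high in ethanol as in oligomycin. At 1 h AT4G17260 was already 2.72 times as high in oligomycin, AT3G27220 was 1.44 times as high in ethanol, and the other pair differed by less than the spread of the ethanol cultures. The limma fit called 1 of the 4 genes at 1 h, where it called 3.44% of all 22746 probe sets, and all 4 at 4 h, where it called 36.7%. Nothing is read from these member counts, since these changes were known when the genes were picked.

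**Figure D1:**
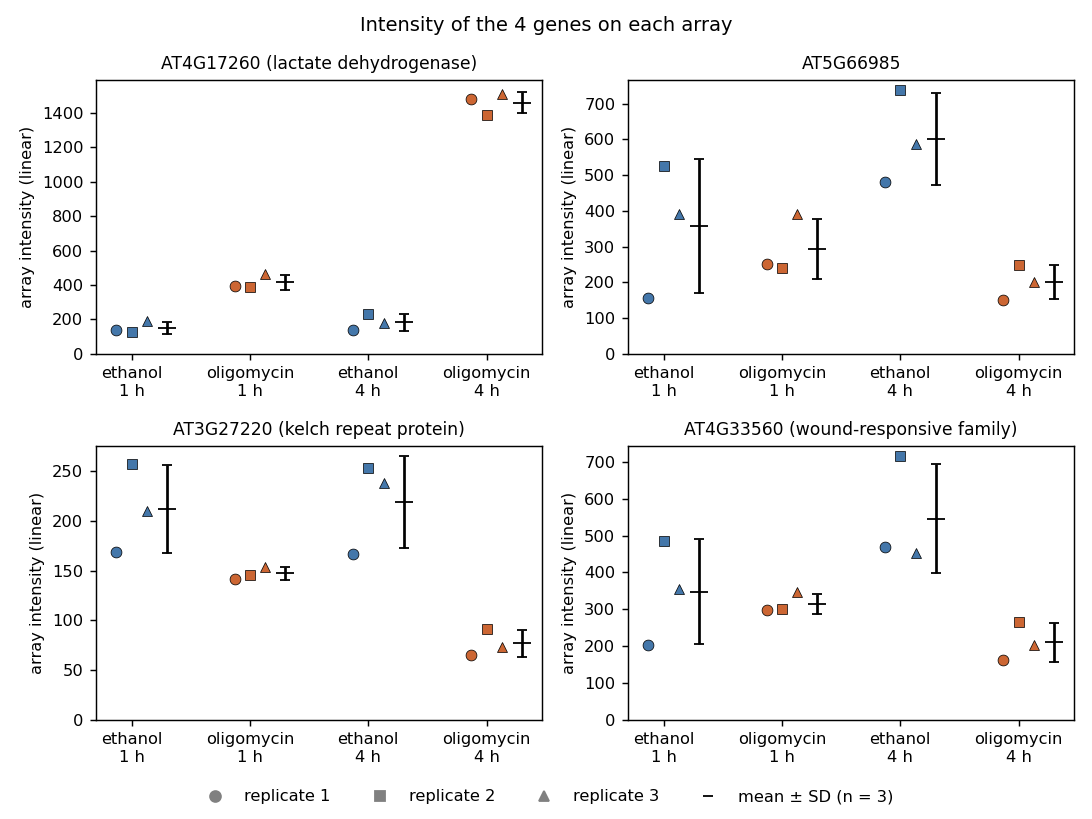
Array intensity (linear scale from 0) of the 4 genes, with a marker for each of the 12 arrays, blue for ethanol and orange for oligomycin, and mean ± SD of each group in black. Lactate dehydrogenase climbs from 153 to 1460.0 between the ethanol arrays of 1 h and the oligomycin arrays of 4 h, while the other 3 genes are lowest in oligomycin at 4 h.

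AT4G17260, the enzyme that makes lactate, had in ethanol an intensity of 141.0, 124.9 and 192.0 at 1 h, and 136.1, 232.2 and 181.0 at 4 h. In oligomycin it was 391.5, 389.9 and 464.7 at 1 h, and 1481.8, 1389.3 and 1509.0 at 4 h. The ethanol groups overlapped, and every oligomycin array lay above every ethanol array, with those of 4 h above those of 1 h. From low to high the group means were 153 ± 35.0 (ethanol, 1 h), 183 ± 48.1 (ethanol, 4 h), 415 ± 42.7 (oligomycin, 1 h) and 1460.0 ± 62.7 (oligomycin, 4 h), and only the first pair of neighbours did not differ beyond its spread. On the scale of log2(intensity + 16), which is used for all log2 changes here and understates those of dim genes, the difference between oligomycin and ethanol was 1.37 ± 0.17 (SE of the fit) at 1 h and 2.92 ± 0.17 at 4 h. At 1 h 110 of the 22746 probe sets had a larger upward change and at 4 h 133, so that the gene kept a place near the top while its own change grew. Between the oligomycin groups the mean increased 3.52 times from 1 h to 4 h, and between the ethanol groups 1.20 times.

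AT5G66985 has no assigned role and belongs to the set of genes induced by low oxygen. Its intensity was 156.2, 526.0 and 391.0 in ethanol at 1 h and 250.8, 238.9 and 391.3 in oligomycin at 1 h. At 4 h the values were 481.3, 737.5 and 586.7 in ethanol and 151.7, 247.5 and 201.5 in oligomycin. The groups of 1 h overlapped widely, since the ethanol arrays enclosed those of oligomycin, and at 4 h the lowest ethanol array was above the highest oligomycin array. The means ran from 200.2 ± 47.9 (oligomycin, 4 h) through 294 ± 84.8 (oligomycin, 1 h) and 358 ± 187 (ethanol, 1 h) to 602 ± 129 (ethanol, 4 h), and each neighbouring pair in this order overlapped. The log2 difference was −0.15 ± 0.35 at 1 h and −1.52 ± 0.35 at 4 h, a larger downward change than in all but 125 probe sets. At 1 h its sign rested on single arrays: it was −0.63 without the first ethanol replicate and 0.19 without the second.

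AT4G33560 encodes a protein of the wound-responsive family. It had 201.9, 485.3 and 356.0 in ethanol and 296.6, 301.0 and 345.9 in oligomycin at 1 h, and 468.3, 716.8 and 453.5 against 162.0, 266.6 and 202.4 at 4 h. As for AT5G66985, the ethanol arrays of 1 h enclosed those of oligomycin, and at 4 h the treatments were apart. The order of means was the same too: 210.3 ± 52.7 (oligomycin, 4 h), 314.5 ± 27.3 (oligomycin, 1 h), 348 ± 142 (ethanol, 1 h) and 546 ± 148 (ethanol, 4 h). The oligomycin groups did not overlap, and ethanol at 1 h overlapped all the others. The log2 difference was −0.06 ± 0.27 at 1 h, again with a sign set by single arrays (−0.39 without the first ethanol replicate and 0.21 without the second), and −1.31 ± 0.27 at 4 h.

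AT3G27220 encodes a protein with kelch repeats, a fold that often binds other proteins. It was the steadiest of the 3 in ethanol, where its intensity was 168.5, 257.4 and 209.7 at 1 h and 166.8, 253.3 and 238.5 at 4 h. In oligomycin the values were 142.0, 145.6 and 154.0 at 1 h and 64.9, 91.6 and 73.5 at 4 h. Both oligomycin groups lay below all 6 ethanol arrays, and the arrays of 4 h lay below those of 1 h, with no overlap. The means were 76.7 ± 13.6 (oligomycin, 4 h), 147 ± 6.16 (oligomycin, 1 h), 212 ± 44.5 (ethanol, 1 h) and 219.5 ± 46.3 (ethanol, 4 h), and only the ethanol pair did not differ beyond its spread. The log2 difference was −0.46 ± 0.17 at 1 h and −1.34 ± 0.17 at 4 h. Its lower level in oligomycin therefore came with hardly any move in ethanol (1.04 times from 1 h to 4 h). The ethanol means of the other pair were 1.68 times (AT5G66985) and 1.57 times (AT4G33560) as high at 4 h as at 1 h, and 1.31 and 1.30 times without the first ethanol replicate of 1 h. Whether the genes differ in this was not tested. Within oligomycin all 3 genes had lower means at 4 h than at 1 h, and the mean of 1 h was 1.92 times that of 4 h for AT3G27220, 1.50 times for AT4G33560 and 1.47 times for AT5G66985.

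Around these genes stood lists of hypoxia genes, arranged by role and holding 70 genes besides the 4, of which 26 were read by a probe set of their own. At 1 h 3 of the 26 rose by limma's adjusted p (11.5%, beside 2.3% of all probe sets) and none fell, beside 1.14% of all probe sets. None fell at an unadjusted p under 0.05 either, for which no share of all probe sets was taken. Nothing is read from the absence of falls, since a share of 1.14% makes none likely among 26 genes. At 4 h 9 rose (beside 11.4%) and 4 fell (beside 25.3%), so that 50% of the 26 passed the test in a contrast that called 36.7% of all probe sets. These shares are not of like sets, since all probe sets include many dim ones. With the dimmest 40% left out, 25 of the 26 stayed and 15 were called (9 up and 6 down). Over all probe sets 7617 calls were then made in place of 8345, although 40% of the probe sets had been left out. The share called thus rose over all probe sets as well. No excess of calls is read from the 50%. The median log2 change of the 26 was 0.07 at 1 h and −0.18 at 4 h, next to −0.04 and −0.10 for all probe sets. The effect of oligomycin differed between 1 h and 4 h for 4 of the 26 by the interaction, which called 17.8% of all probe sets: 2 in the upward direction (beside 7.2%) and 2 downward (beside 10.6%). Without the second ethanol replicate of 1 h the counts were 5 at 1 h, 17 at 4 h (9 up and 8 down) and 7 for the interaction. With only the 6 arrays of 4 h in the fit there were also 9 rises and 8 falls, with 8166 calls over all probe sets. The number of falls in the list thus depended on the arrays that enter the fit. The lists were written with earlier results known, and the 4 described genes had been taken out of them for their changes, which leaves the rest a trimmed list.

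Fermentation itself was thinly covered. Of the genes for ethanol and alanine only PDC2, a pyruvate decarboxylase, had a probe set of its own, and it was not called at either time: 291 ± 96.6 in ethanol and 274 ± 26.7 in oligomycin at 1 h (limma adjusted p = 0.96), and 385 ± 63.1 and 268 ± 51.6 at 4 h (adjusted p = 0.0714). At 4 h the lowest ethanol array of PDC2 (321.8) was barely above the highest oligomycin array (318.7). No contrast with lactate dehydrogenase is drawn from this uncalled gene. AT5G06580, the mitochondrial D-lactate dehydrogenase, which oxidises the other mirror form of lactate, had 68.9 ± 12.6 in ethanol and 59.1 ± 6.04 in oligomycin at 4 h and was not called (adjusted p = 0.38). PPDK, pyruvate orthophosphate dikinase, which interconverts pyruvate and phosphoenolpyruvate, rose at 4 h from 198.0, 172.3 and 186.7 to 323.0, 434.4 and 395.9 (log2 change 0.98, adjusted p = 5.6e-05). At 1 h PPDK had not differed (165 ± 20.2 and 163 ± 18.7, adjusted p = 0.979), and its change grew between the times by limma's interaction (adjusted p = 0.00216). The alcohol dehydrogenase ADH1, PDC1 and the sucrose synthases SUS1 and SUS4 were not analysed here, since the gene names used gave none of them a probe set alone.

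Of the oxygen-sensing machinery only AT3G10040 was measured, the trihelix repressor HRA1, which is itself induced by low oxygen and restrains the ERF factors. It read 125.5, 214.2 and 226.2 in ethanol and 48.4, 135.0 and 86.7 in oligomycin at 4 h, with a wide overlap at 1 h, and was not called (log2 change −0.99, adjusted p = 0.105). The universal stress protein AT3G03270 (HRU1), which links hypoxia to hydrogen peroxide, was bright and close between the treatments at 4 h, at 2759 ± 410.3 in ethanol and 2688 ± 206.9 in oligomycin (adjusted p = 0.925).

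Among the core hypoxia genes 24 were measured besides the 3 described, and they too moved in both directions. The risers at both times were AT1G76600, the peroxidase AT5G39580 and the phosphatidylinositol 4-kinase family gene AT1G26270. AT1G76600 went from 99.7, 134.3 and 132.1 in ethanol to 821.1, 902.7 and 958.2 in oligomycin at 1 h, and at 4 h from 126.1, 178.5 and 207.3 to 1841.3, 1811.8 and 2168.1 (log2 changes 2.73 and 3.41, adjusted p = 7.07e-07 and 9.32e-09). Its change at both times was larger than that of lactate dehydrogenase, so the enzyme was not the leading riser of the hypoxia genes. AT5G39580 reached 288 ± 39.5 from 85.0 ± 33.6 at 1 h and 645 ± 5.26 from 106 ± 17.7 at 4 h (log2 changes 1.63 and 2.45, adjusted p = 0.000327 and 8.61e-07), and AT1G26270 439 ± 6.40 from 282 ± 26.9 at 4 h (0.61, adjusted p = 0.000196).

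AT3G10020, AT4G17670, AT1G72940, TIL and AT2G15880 were also called as rises at 4 h and were not called at 1 h. Of these only AT4G17670 was called by the interaction, so the others are not shown to have risen later. AT3G10020, a hypoxia gene of unknown function, rose from 573 ± 107 to 1067 ± 109 and AT4G17670 from 88.0 ± 12.8 to 183 ± 20.7 (log2 changes 0.89 and 0.94). TIL, a temperature-induced lipocalin that protects membranes, had a log2 change of 0.83 and AT2G15880 one of 0.56, and both passed only narrowly (adjusted p = 0.0476 and 0.0447). Leaving out a single array ended the call of TIL for 8 of the 12 arrays and that of AT2G15880 for 7. TIL was also not called after quantile normalization (adjusted p = 0.097), and a pseudocount of 1 ended the calls of TIL, AT2G15880 and AT1G72940 (adjusted p = 0.0837, 0.0818 and 0.0551). The toll-domain gene AT1G72940 went from 132 ± 24.3 to 313 ± 22.0 (1.16, adjusted p = 0.0151). Its log2 change was as large at 1 h (1.21, adjusted p = 0.0778), from 30.1, 140.2 and 107.5 to 183.4, 209.3 and 226.6. The change did not differ between the times by limma's interaction (adjusted p = 0.969).

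The 4 falls were AT2G17850, AT4G10270, AT5G42200 and AT5G44730. AT2G17850, a rhodanese-like protein, read 451.8, 720.7 and 511.4 in ethanol and 119.1, 205.5 and 153.2 in oligomycin at 4 h (log2 change −1.72, adjusted p = 0.00255), a larger fall than in any of the 4 described genes. AT4G10270, which like AT4G33560 belongs to the wound-responsive family, fell from 799 ± 123 to 374 ± 149 (−1.12, adjusted p = 0.00839). Of this family AT4G05070 (299.97 ± 13.4 and 336 ± 63.4, adjusted p = 0.488) and AT4G28240 (326 ± 53.7 and 312 ± 54.1, adjusted p = 0.816) were also measured and were not called. The RING finger gene AT5G42200 fell from 156 ± 21.8 to 76.3 ± 31.1 (−0.95, adjusted p = 0.0231, a call lost without any 1 of 3 arrays and with arrays centred on their medians, adjusted p = 0.0579) and AT5G44730, a haloacid dehalogenase-like hydrolase, from 136 ± 3.42 to 69.8 ± 5.83 (−0.83, adjusted p = 0.000367). The other 12 measured core genes, PDC2, HRA1 and HRU1 included, were not called at 4 h. They also included AT3G29970, AT4G27450 and AT4G39675, which had means between 760.1 and 2346 in the groups of that time.

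**Figure D2:**
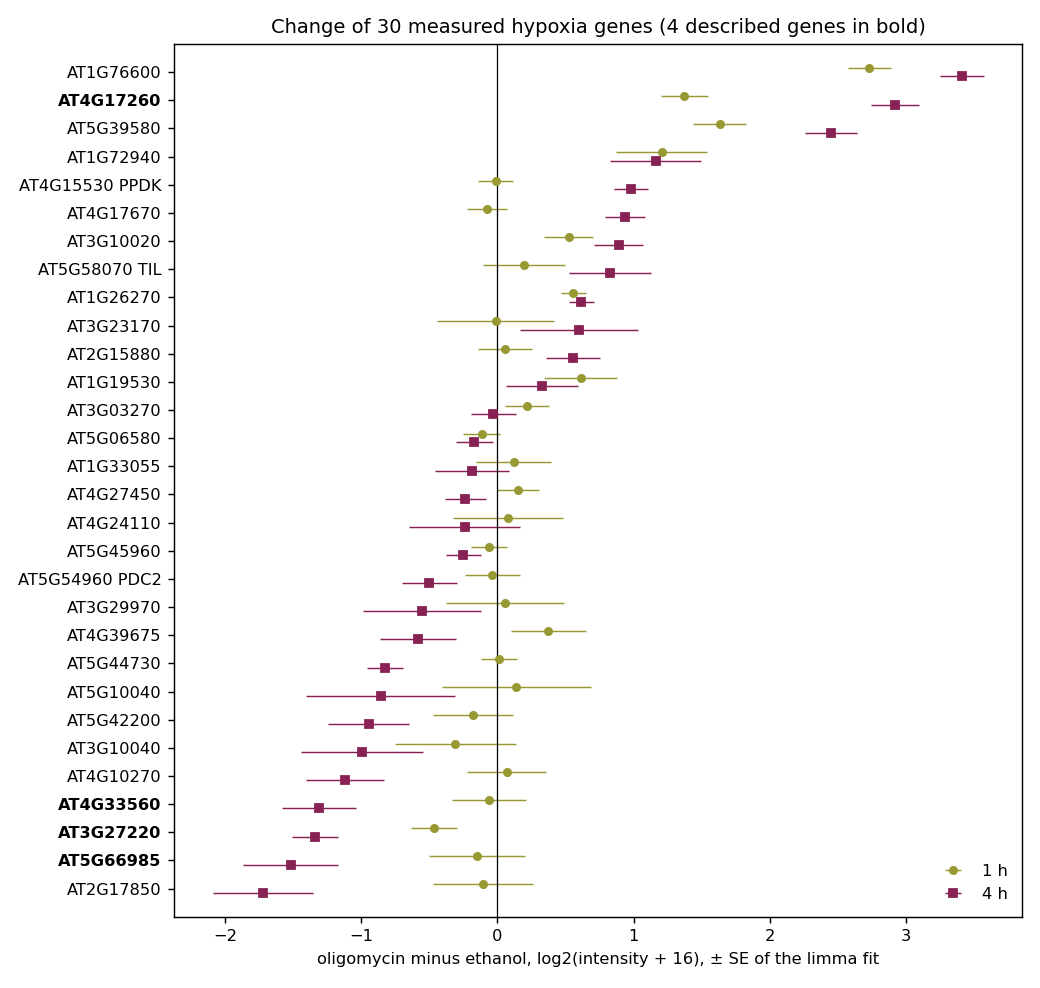
Log2 change (oligomycin minus ethanol, x axis, log2(intensity + 16), with the SE of the limma fit) of the 30 measured hypoxia genes at 1 h (circles) and 4 h (squares), sorted by the change at 4 h, with the 4 described genes in bold. Lactate dehydrogenase at 2.92 is second to AT1G76600 at 3.41, and the other 3 described genes lie between −1.31 and −1.52, above AT2G17850 at −1.72.

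Cultures of a group differed from each other in these genes, and in the same sense. In ethanol at 1 h the first replicate was the lowest of the 3 for 3 of the 4 described genes and for 22 of the 26 other hypoxia genes, whereas over 5603 probe sets with a single gene and a mean intensity of at least 50 it was the lowest in 31.4%. The second replicate was the highest for 3 of the 4 and 21 of the 26, beside 35.5% of those probe sets. AT5G66985, for instance, was 3.37 times as high on the array of the second as on that of the first of these ethanol cultures. Its treatments at 4 h differed 3.01 times by group means, which vary less than single arrays. The median deviation of the 30 hypoxia genes from their group mean was −0.40, 0.46 and −0.00 (log2) for the replicates 1, 2 and 3 of ethanol at 1 h, and −0.20, 0.22 and −0.02 for those of ethanol at 4 h. In oligomycin it was −0.12, −0.09 and 0.18 at 1 h and −0.18, 0.15 and 0.01 at 4 h, and for the 5603 probe sets it lay between −0.01 and 0.01 in every array. Lactate dehydrogenase did not follow the others here, being lowest in the second ethanol replicate of 1 h. The sources used here name no batch, flask or oxygen level for a replicate, and what set these cultures apart was not tested.

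**Figure D3:**
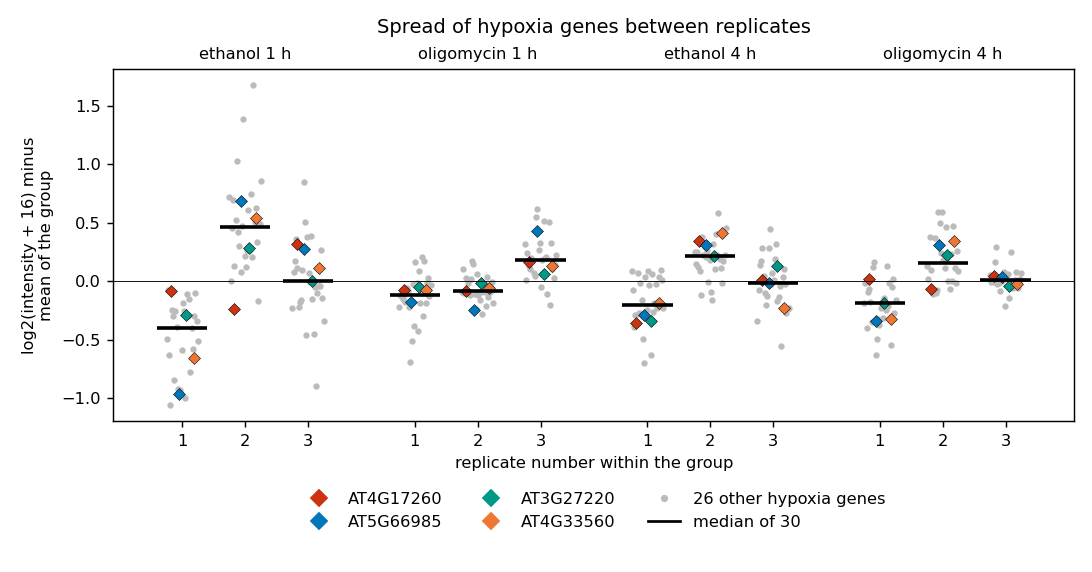
Deviation of each hypoxia gene from the mean of its group (y axis, log2(intensity + 16)) on each of the 12 arrays (x axis, replicates 1 to 3 of each group). Grey points are the 26 other hypoxia genes, diamonds the 4 described genes and black lines the median of all 30, which runs from −0.40 to 0.46 in ethanol at 1 h and is nearer 0 in the other groups.

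In the solvent controls most of these genes had higher means at 4 h than at 1 h, without passing the test. All 4 described genes and 25 of the 26 others had a higher mean in ethanol at 4 h than at 1 h, against 48.8% of the 5603 probe sets, with a median log2 difference of 0.40 for the 26. None of the 26 was called by limma, in a contrast that called 0.00879% of all probe sets. Many of these genes varied together between the ethanol cultures, so the 26 are not separate observations. Without the first ethanol replicate of 1 h, the culture in which these genes were low, 19 of the 26 and 3 of the 4 were higher at 4 h and the median was 0.10. The comparison of treatments at 4 h shares the ethanol arrays of 4 h with this one, so the lower level of AT5G66985 and AT4G33560 in oligomycin is set against controls whose means were higher than those of 1 h.

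Genes with the most similar course were sought for each of the 4 among 5602 other probe sets with a single gene and a mean of at least 50, by Pearson's r of log2(intensity + 16) over the 12 arrays. These arrays form 4 groups, which by themselves make r high, and r is given only to rank genes. Closest to lactate dehydrogenase were AT5G52750, UGT73B4, AT2G36220, SUFE2 and AT4G34150 (r = 0.99 for each, n = 12 arrays). None of these is in the hypoxia lists. They had ratios of oligomycin to ethanol at 4 h from 6.51 for AT2G36220 to 24.3 for UGT73B4, on either side of the 7.97 of the enzyme's gene. Closest to AT5G66985 was AT4G33560 itself (r = 0.97), followed by AT2G17850 (r = 0.95) and AT5G42200 (r = 0.92), both of which fell at 4 h, then AT2G25450 and AT1G74940 (r = 0.91 each). AT2G17850 also came first for AT4G33560 (r = 0.97), before AT5G66985, AT1G74940, AT2G16660 and FDH. For AT3G27220 the closest were AT2G25760, AT5G47060, AT4G00170, AT3G61240 and AT1G54890 (r from 0.95 to 0.97), all with lower means in oligomycin at 4 h and none of them in the hypoxia lists. AT5G66985 and AT4G33560 thus stood among the closest genes of each other, and AT3G27220 was among those of neither (r = 0.79 and 0.83 with the pair).

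The genes next to the 4 on the chromosomes, by the gene order of the assembly TAIR10.1, were taken up once values were known. Of the 16 protein-coding genes in the next 2 places on either side, 13 were measured, and 8 of these were called at 4 h (3 up and 5 down, 61.5% beside 36.7% of all probe sets). Nothing is read from this share of 13 genes. On the side of lower gene numbers of lactate dehydrogenase, AT4G17245 rose 6.82 times at 4 h, from 43.2, 64.4 and 58.1 to 353.1, 408.5 and 368.1 (log2 change 2.47, limma adjusted p = 2.15e-08), and AT4G17250, between them, rose from 12.6 ± 3.42 to 32.1 ± 5.68 (0.75, adjusted p = 0.00277). On the other side AT4G17270 was not called (159 ± 17.8 and 149 ± 9.26, adjusted p = 0.584) and AT4G17280 fell from 44.6 ± 10.0 to 27.8 ± 7.34 (−0.47, adjusted p = 0.0318). Both direct neighbours of AT3G27220 fell with it at 4 h: AT3G27230 from 272 ± 37.9 to 104 ± 8.06 (adjusted p = 9.54e-07) and AT3G27210 from 91.9 ± 12.3 to 42.6 ± 4.47 (adjusted p = 3.29e-05). The 3 measured neighbours of AT5G66985 were dim, with means under 8 in every group, and none was called. Beside AT4G33560, AT4G33550 fell and AT4G33540 rose (log2 changes −0.71 and 0.78).

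**Figure D4:**
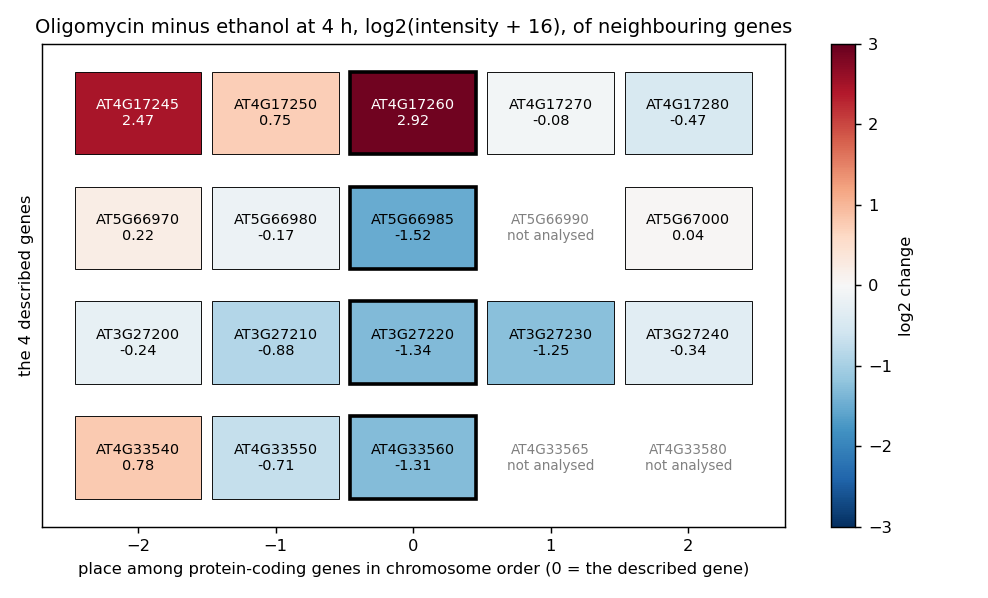
Log2 change at 4 h (oligomycin minus ethanol, log2(intensity + 16), colour and number) of each described gene (thick frame, place 0) and of the protein-coding genes in the next 2 places on either side (x axis, in chromosome order). AT4G17245, next but one to lactate dehydrogenase, stands at 2.47, and the genes on both sides of AT3G27220 are below 0.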

How the data were processed

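The deposited table held 12 columns of linear array intensity, 1 per sample, between 0 and 6149.7 with 166 zeros and with array medians from 36.2 to 46.0. RMA is the tool named by the submitters' processing notes, without a version. RMA usually gives log2 values, so how the authors made these deposited intensities is not known. Values were turned into log2(intensity + 16). Of 22810 probe sets 64 controls were left out. Of the 22746 tested, 13513 carried 1 gene symbol, 503 several and 8730 none, in a platform annotation joined to TAIR10.1 names, and the brightest probe set stood for a gene.

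The 4 group means were fitted with limma 3.58.1 (R 4.3.3, two-sided moderated tests, 8 residual and 4.14 prior degrees of freedom, Benjamini-Hochberg over all probe sets). The fit was also run on simulated data with independent noise for each probe set and array. Those data held no shared replicate effect, so the run cannot show how the fit fares where genes vary together between cultures. The number of arrays limits the precision. The members, lists and tests were chosen with earlier results of these data known. Other named genes were all measured members of the role lists, core genes called in any contrast, and the 5 of closest course for each member. Other core genes, the chromosome neighbours and the ethanol comparison over time were taken up once values were known.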

Additional observations from a re-analysis of the deposited data

Results flagged for a closer look

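For 4 of the 26 other hypoxia genes the effect of oligomycin differed between 1 h and 4 h by limma's interaction with adjustment over all probe sets, a contrast that called 17.8% of them. The difference of the log2 changes (4 h minus 1 h) was 0.995 for PPDK (AT4G15530, adjusted p = 0.00216) and 1.02 for AT4G17670 (adjusted p = 0.00471), whose oligomycin arrays of 4 h all lay above the ethanol arrays of that time. It was −0.838 for AT5G44730 (adjusted p = 0.00887) and −1.62 for AT2G17850 (adjusted p = 0.0494). The call of AT2G17850 was lost when any 1 of 10 of the 12 arrays was left out, with values from −2.13 to −1.19, and under 5 of 7 other settings.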

How the results depend on the processing

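The log2 changes of the 4 genes moved by less than the replicate spread under quantile normalization, arrays centred on their medians and pseudocounts of 1 and 32. With single arrays left out they ran from 1.25 to 1.53 at 1 h and 2.74 to 3.09 at 4 h for AT4G17260, −0.63 to 0.19 and −1.67 to −1.35 for AT5G66985, −0.61 to −0.32 and −1.51 to −1.23 for AT3G27220, and −0.39 to 0.21 and −1.48 to −1.10 for AT4G33560. The sign at 1 h reversed for AT5G66985 (0.19) and AT4G33560 (0.21) without the second ethanol replicate of 1 h. Of the 26 other hypoxia genes 3 to 5 were called at 1 h, 10 to 17 at 4 h and 3 to 7 for the interaction with single arrays left out, in each case the most without that same replicate. Over all probe sets these fits called 441 to 833, 7060 to 8834 and 3227 to 4017. The number of the 26 higher in ethanol at 4 h than at 1 h was 19 to 25. The interaction count of these hypoxia genes was 7 with the replicate block and 7 with the dimmest 40% left out, in place of 4, and the cause was not tested. Over all probe sets the interaction called 3901 and 4312 in these settings, in place of 4043. Over all probe sets, deviations of arrays of a time with the same replicate number correlated at −0.06 to 0.10, and the main fit took no pairs. These correlations cannot show that the hypoxia genes lack a shared replicate effect. The first replicate was the lowest for 22 and 16 of the 26 at 1 h (ethanol, oligomycin). At 4 h it was the lowest for 15 and 20, beside 31.2% to 39.2% of the 5603 probe sets over the 4 groups. Whether the numbers mark cultures of shared origin was not tested. With arrays centred on their medians falls made up 47.1% of all calls at 4 h in place of 68.9%, 22.8% in place of 33.2% at 1 h and 40.8% in place of 59.5% for the interaction, while 9 of the 26 were up and 3 down at 4 h. The split at 4 h was 10 up and 6 down with the replicate block, and 9 up and 8 down with only the 6 arrays of that time or without the second ethanol replicate of 1 h, in place of 9 and 4. Calls over all probe sets were 8278, 8166 and 8834 in these fits, in place of 8345. No called gene of the 26 changed sign under any setting run. Probe sets near the added 16 have changes that are understated.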
